A study of Drosophila melanogaster with 27 samples.

Results

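Embryos whose mothers expressed Upf1-NosL7, a mutant chimera of the RNA helicase Upf1 and the translational repressor Nanos (Nos), were compared with wild-type embryos of the same stage. The comparison holds 6 of the 27 libraries of the study, the 3 labelled with the genotype Upf1-NosL7 and the 3 labelled with the genotype w, all from *Drosophila melanogaster* embryos at nuclear cycle 9. According to the methods of the study, the transgenes were driven in the female germ line by a maternal alpha-tubulin GAL4-VP16 driver, and each transgenic mRNA carried the 3′ UTR of *nos*. The NosL7 moiety lacks 7 amino acids of the C-terminal tail, and *w1118* served as the wild type. Embryos were fixed in methanol, stained with DAPI and sorted by hand, and poly(A)-selected RNA was sequenced. The driver and the transgene were both introduced by crosses, so that effects of the protein, of the driver and of sequence differences between stocks cannot be told apart in this comparison. The other sorted embryos, which expressed Upf1, Nos or Upf1-Nos from the same driver, entered the same model, with 3 libraries per genotype and 15 in all.

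Nonsense-mediated decay (NMD) removes mRNAs whose translation ends at a stop codon that is judged premature, and Upf1 is its central helicase. A protein that brings Upf1 to an mRNA by way of an RNA-binding partner can destabilize that mRNA. Nos binds RNA with little specificity on its own and is brought to *hunchback* (*hb*) mRNA together with Pumilio (Pum), which reads the core of the binding site. The tail removed in the L7 mutant is needed for that joint recruitment, and the mutant chimera was included as a control for it. At nuclear cycle 9 the zygotic genome is largely silent, so that the RNA is almost entirely of maternal origin.

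The 3 Upf1-NosL7 libraries held between 15300361 and 16829646 counts and the 3 wild-type libraries between 15041030 and 22002022. The Upf1-NosL7 libraries resembled each other. Pairs of them gave 12.8 to 15.9 for the chi-square divided by its degrees of freedom. Wild-type replicates 1 and 2 differed by 25.7 on this scale. Wild-type replicate 3 stood apart from both, at 126 and 128. It also differed from the other libraries along transcript length. When the genes were split into 5 bins of annotated length, the median gene of wild-type replicate 3 lay 0.34 (log2) below the mean of the 6 libraries among the shortest transcripts and 0.66 above it among the longest. The corresponding medians of the 3 Upf1-NosL7 libraries were between 0.04 and 0.14 for the shortest and between −0.35 and −0.16 for the longest transcripts. For the counts of called genes and for the gene lists whose median is given, values without wild-type replicate 3 and values after offsets that remove a trend along length between libraries are also given. The study calls its triplicates biological replicates, but nothing in the labels says that they came from separate crosses. The p-values therefore measure only the spread between these samples, which may be technical.

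**Figure D1:**
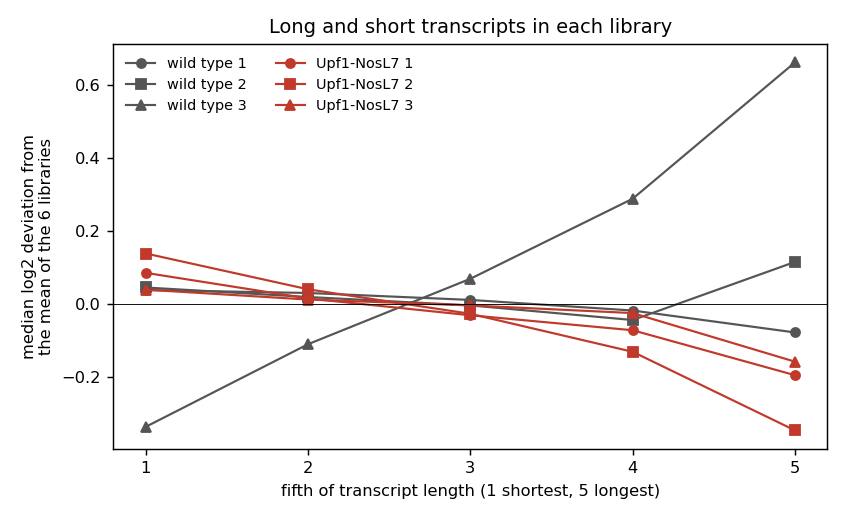
Median log2 deviation of each library from the mean of the 6 libraries, for 5 bins of annotated transcript length from the shortest to the longest (lines, 3 wild-type and 3 Upf1-NosL7 libraries). Wild-type replicate 3 runs from −0.34 to 0.66, whereas the 3 Upf1-NosL7 libraries fall below 0 in the bin of the longest transcripts.

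The transgene itself could be followed only in part, since its reads fall on *Upf1* and *nos*. *Upf1* (X chromosome) stood at 36.2, 47.5 and 63.8 CPM (counts scaled by the total of the library) in wild type and at 55.1, 63.2 and 72.6 CPM in Upf1-NosL7. The groups overlapped and the log2 fold change of 0.35 did not pass the test (adjusted p = 0.349), although it was 0.88 (adjusted p = 1.43e-05) with length offsets. The level of *nos* was lower, at 244, 293 and 308 CPM against 346, 430 and 339 CPM in wild type (log2 fold change −0.42, adjusted p = 0.018). The label of Upf1-NosL7 is therefore not checked by a clear rise of either gene of the chimera. The level of early zygotic genes set both groups apart from wild-type embryos of 2 to 3 hours. Whether the embryos were at the labelled nuclear cycle, at the next one or at an earlier stage was not tested. The summed level of 26 genes expressed early in zygotic development was between 127 and 195 CPM in wild type and between 117 and 133 CPM in Upf1-NosL7, where a mean of 6390.5 CPM was reached in wild-type embryos collected unsorted at 2 to 3 hours. Of 16 markers of follicle cells, 13 had no count in wild type and 12 none in Upf1-NosL7, and they summed to at most 0.54 CPM in any of the 6 libraries. The 8 markers of differentiated tissues summed to at most 1.41 CPM. In RNA from whole embryos, fewer cells with an RNA and less of that RNA per cell cannot be told apart.

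Of 79 genes annotated as ncRNA, 14 were enriched in Upf1-NosL7 embryos, as were 51 of 6475 protein-coding genes, and the depleted genes were mostly long. The enriched and the depleted genes both had low median levels in wild type. A gene was called when its level differed more than 2-fold at a Benjamini-Hochberg adjusted p below 0.05 in the quasi-likelihood test of edgeR, and genes that met the same rule in Upf1 embryos were left out. Of 6581 genes tested, 115 (1.75%) were depleted and 65 (0.988%) enriched. At any size of change, 516 genes (7.84%) were lower and 332 (5.04%) higher. At an unadjusted p below 0.05, 1391 of the 6581 genes were lower and 701 higher, which is the baseline for such counts in the gene lists below. The same counts were 1312 and 671 of 6585 with length offsets, and 731 and 793 of 6393 without wild-type replicate 3. All genes tested had a median log2 fold change of −0.064. The libraries of the groups did not overlap for any of the 115 depleted genes and for 64 of the 65 enriched genes, where 22.5% of all genes were lower and 14.6% higher without overlap. A further 86 genes were depleted and 90 enriched that were also called in Upf1 embryos. With these kept in, 201 genes (2.93% of 6857) were depleted and 155 (2.26%) enriched.

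The enriched calls changed less than the depleted calls with length and with most single libraries left out. Without wild-type replicate 3, 62 genes were enriched and 29 depleted. With length offsets, 63 genes were enriched and 40 depleted, so that the balance between the directions turned. Of the genes called at first, 50 of 65 enriched and 31 of 115 depleted still passed the thresholds with length offsets, and 51 and 28 without wild-type replicate 3. The loss was similar without Upf1-NosL7 replicate 1, 2 or 3, where 37, 31 and 35 of the 115 depleted genes still passed. Without wild-type replicate 2, 48 of them passed, and without wild-type replicate 1 all 115. The corresponding counts of enriched genes were 54, 57 and 60 of 65, then 59 and 58. Under every one of 16 alternatives (other filters, scalings and tests, fewer libraries and the replicate block, but not the stricter filter on low counts), 36 enriched and 13 depleted genes passed the thresholds, whether or not Upf1 also called them there. The counts over all settings are given in the plot of genes called under each setting.

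**Figure D2:**
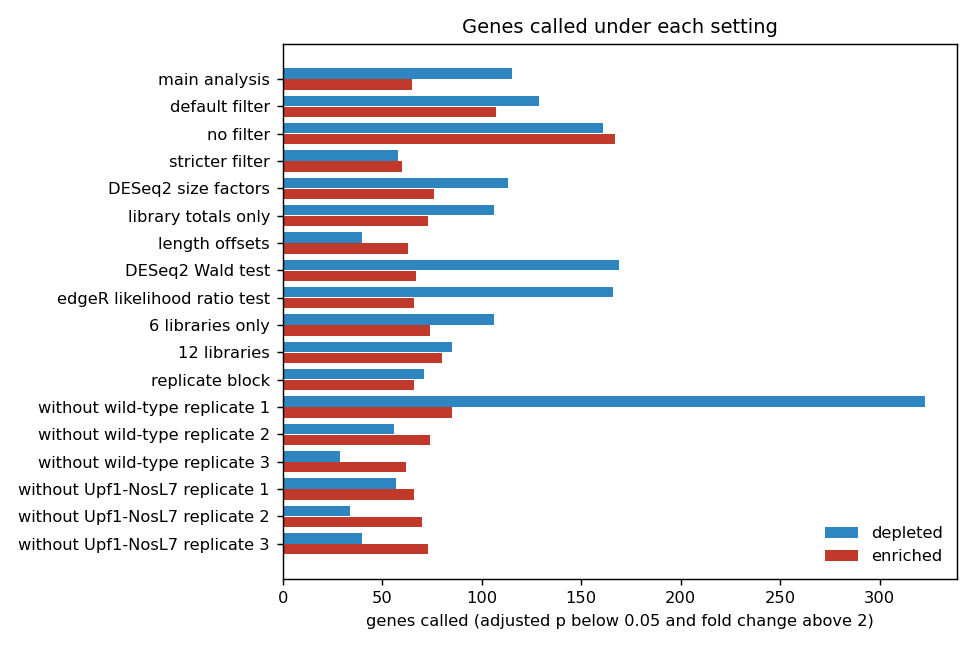
Number of genes depleted (blue) and enriched (red) in Upf1-NosL7 embryos under each setting, by the same thresholds as in the text. Enriched genes number from 60 with the stricter filter to 167 without a filter, whereas depleted genes number from 29 without wild-type replicate 3 to 323 without wild-type replicate 1.

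Host genes of small nucleolar RNAs (snoRNAs) showed the clearest rise. These *Uhg* genes carry snoRNAs in their introns, and their spliced exons, which hold no long reading frame, are known substrates of NMD in flies and mammals. A list of 8 RNAs known to be sensitive to NMD held 6 *Uhg* genes, *tra* and *Gadd45*, of which *Gadd45* did not pass the filter on low counts and *Uhg8* was called in Upf1 embryos. Of the other 6, 4 were enriched, against 0.988% of all genes, and all 6 were higher at an adjusted p below 0.05. Their median log2 fold change was 2.78, and 4 of 6 were again enriched with length offsets (median 2.503) and 3 of 5 without wild-type replicate 3 (median 2.92).

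*Uhg1* lies at 17699097 to 17703344 on the forward strand of chromosome arm 2R (build BDGP6.54). Its level was 10.8, 11.5 and 9.54 CPM in wild type and 347, 299 and 288 CPM in Upf1-NosL7, a log2 fold change of 4.86 (SE 0.18, adjusted p = 1.75e-10). The lowest Upf1-NosL7 library was far above the highest wild-type library. *Uhg2*, at 9893805 to 9895003 on the reverse strand of arm 2L, stood at 2.19, 2.39 and 1.59 CPM in wild type and at 51.5, 80.2 and 71.7 CPM in Upf1-NosL7 (log2 fold change 5.04, SE 0.19, adjusted p = 2.92e-10). *Uhg4*, on arm 2R at 9095273 to 9097312, stood at 13.1, 15.7 and 10.4 CPM in wild type and at 104, 111 and 101 CPM in Upf1-NosL7 (log2 fold change 3.01, adjusted p = 2.01e-08). These 3 host genes were among the 5 enriched genes with the highest TPM in Upf1-NosL7 embryos, with means of 333, 325 and 327 TPM for *Uhg1*, *Uhg2* and *Uhg4*. *Uhg5*, on the same arm at 14621601 to 14624498, rose from 4.13, 5.25 and 4.18 CPM to 27.2, 28.2 and 25.0 CPM (log2 fold change 2.55, adjusted p = 1.31e-06). *Uhg3* (arm 2L) was higher by less than the threshold, with 21.5, 25.2 and 18.6 CPM in wild type and 37.5, 32.4 and 28.7 CPM in Upf1-NosL7 (log2 fold change 0.58, adjusted p = 0.0238).

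*Uhg8*, left out because it was called in Upf1 embryos, stood at 1.19, 1.00 and 1.27 CPM in wild type, at 37.9, 42.9 and 42.1 CPM in Upf1-NosL7 and at 4.90, 2.72 and 2.08 CPM in Upf1 embryos. *tra*, which encodes a splicing regulator of sex determination, was at 16.5, 17.1 and 12.8 CPM in wild type and 19.6, 25.2 and 23.2 CPM in Upf1-NosL7 (log2 fold change 0.54, adjusted p = 0.0173).

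The rise of the host genes in Upf1-NosL7 differed from the effects of Upf1 and of Nos. Relative to Upf1 embryos, the difference was 5.11 (log2, adjusted p = 7.95e-10) for *Uhg1*, 4.35 (adjusted p = 4.77e-09) for *Uhg2*, 3.30 (adjusted p = 4.43e-08) for *Uhg4* and 3.53 (adjusted p = 4.23e-07) for *Uhg5*. Nos embryos stood at 9.60 ± 0.54 CPM (SD, n = 3) for *Uhg1* and at 0.88 ± 0.34 CPM for *Uhg5*, where wild type had 4.52 ± 0.63 CPM for *Uhg5*. Upf1-Nos embryos, which express the chimera with an intact tail, had high levels as well, with 262 ± 39.8 CPM for *Uhg1* and 82.6 ± 12.4 CPM for *Uhg2*. For genes, here and below, differences from Upf1-Nos rest on its scaling factors of 1.26 to 1.47 (1.055 to 1.068 for Upf1-NosL7), which CPM leave out. *Uhg1* was higher in Upf1-NosL7 than in Upf1-Nos by 0.60 (log2, adjusted p = 0.00241). The difference between both chimeras was 0.07 (adjusted p = 0.682) for *Uhg2* and 0.38 (adjusted p = 0.0927) for *Uhg5*, and neither of these passed the test. *Uhg4* also differed between the chimeras, with 106 ± 5.44 CPM in Upf1-NosL7 and 28.6 ± 3.24 CPM in Upf1-Nos (difference 2.24, adjusted p = 7.55e-09).

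**Figure D3:**
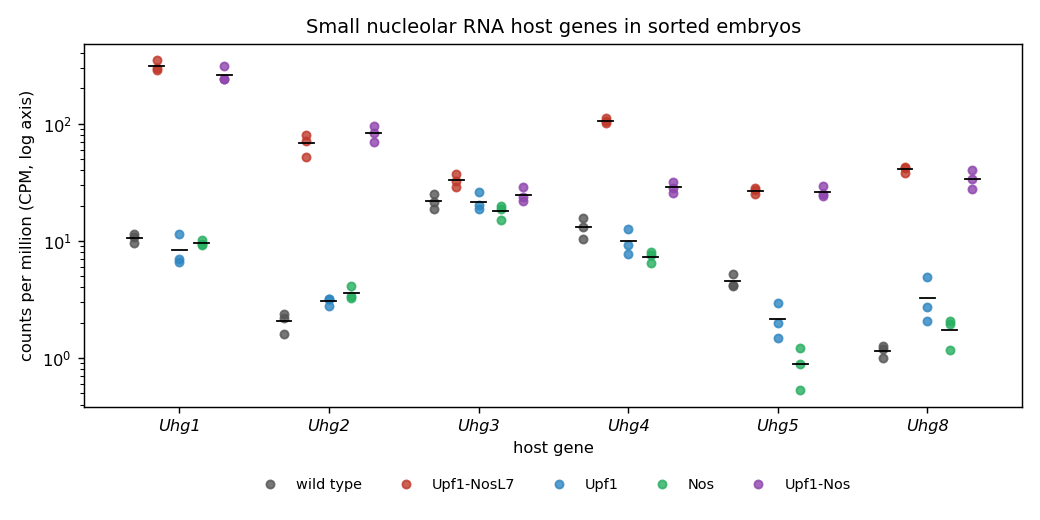
CPM (log axis) of 6 snoRNA host genes in each of the 3 libraries of each genotype (points), with the mean of the genotype (bars). For *Uhg1*, *Uhg2*, *Uhg4*, *Uhg5* and *Uhg8* the 3 Upf1-NosL7 libraries lie above all wild-type, Upf1 and Nos libraries, and for *Uhg1*, *Uhg2*, *Uhg5* and *Uhg8* the Upf1-Nos libraries lie near them.

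Enriched noncoding RNAs were not limited to the host genes. Among genes annotated as ncRNA, 14 of 79 (17.7%) were enriched, or 10 of 74 (13.5%) without the *Uhg* genes, compared with 51 of 6475 protein-coding genes (0.788%). Antisense RNAs accounted for 7 of the 10, out of 29 tested. *asRNA:CR44368* stood at 5.32, 4.99 and 4.55 CPM in wild type and at 18.7, 21.4 and 17.9 CPM in Upf1-NosL7 (log2 fold change 1.95, adjusted p = 2.24e-07), and *asRNA:CR42254* at 13.1, 14.5 and 12.9 CPM against 35.5, 42.0 and 41.1 CPM (log2 fold change 1.53, adjusted p = 3.57e-07). Antisense RNAs overlap a gene on the other strand, *CG18324* and *ReepB* in the first case and *BEAF-32* in the second, and whether reads were counted by strand is not given in the sources used here. *lncRNA:Hsromega*, a heat-inducible nuclear RNA, was at 1.44, 1.66 and 1.27 CPM in wild type and 9.25, 13.5 and 13.5 CPM in Upf1-NosL7 (log2 fold change 3.04, adjusted p = 4.3e-07). None of 9 heat shock protein genes passed the 2-fold threshold by edgeR or by DESeq2, and their median log2 fold change was 0.04, or 0.07 with length offsets and 0.09 without wild-type replicate 3. By edgeR, 2 were higher by less than the threshold at an adjusted p below 0.05, *Hsp23* (log2 fold change 0.68, adjusted p = 0.00494) and *Hsp22* (0.47, adjusted p = 0.0303), and 3 at an unadjusted p below 0.05. DESeq2 had 3 higher at an adjusted p below 0.05.

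The enriched genes had low levels in wild type, as did the depleted genes, whose median there was 7.10 TPM. The median over the 65 enriched genes was 3.20 TPM in wild type and 8.24 TPM in Upf1-NosL7, against 48.3 TPM for all genes tested in wild type. *nolo*, which encodes a secreted matrix protein of the ADAMTS-like family, received 2 counts in the 3 wild-type libraries together and 170 in Upf1-NosL7. The ratio of these totals was 93.4, with a counting interval (95%) of 25.5 to 778. *mia*, which encodes a TAF6-related factor of testis transcription, was at 0.75, 1.46 and 0.95 CPM in wild type and 14.3, 12.9 and 11.1 CPM in Upf1-NosL7 (log2 fold change 3.58, adjusted p = 2.88e-08). For neither gene did the difference from Nos embryos pass the test. Nos embryos reached 2.75 ± 0.51 CPM for *nolo* (difference 0.30, adjusted p = 0.576) and 12.4 ± 0.41 CPM for *mia* (difference −0.03, adjusted p = 0.906). *Xxylt*, which encodes a glycosyltransferase of the Notch pathway, stood at 4.88, 4.59 and 5.50 CPM in wild type and at 30.2, 35.5 and 34.2 CPM in Upf1-NosL7 (log2 fold change 2.71, adjusted p = 1.55e-08). It was above Upf1 embryos (difference 2.02, adjusted p = 9.37e-07) and Nos embryos (difference 1.88, adjusted p = 8.81e-07), and reached 38.2 ± 3.01 CPM in Upf1-Nos.

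Other enriched genes encode factors of RNA processing, protein turnover and transcription. *Rpp21*, a subunit of RNase P, had a log2 fold change of 2.16 (adjusted p = 4.57e-05). *Rpt3R*, a paralog of a proteasome ATPase, had a log2 fold change of 2.06 (adjusted p = 1.04e-06). The transcription factor genes *Sox102F* and *ey*, both on chromosome 4, had log2 fold changes of 1.71 (adjusted p = 3.78e-06) and 1.89 (adjusted p = 0.00231). These 4 genes passed the thresholds under each of the 16 alternatives.

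A group of *pre-mod(mdg4)* genes, which supply 3′ exons for trans-splicing at the *mod(mdg4)* locus, held 5 enriched members of 13 tested, against 0.988% of all genes. *pre-mod(mdg4)-AB* was at 7.63, 9.17 and 5.23 CPM in wild type and 19.6, 21.8 and 18.8 CPM in Upf1-NosL7 (log2 fold change 1.45, adjusted p = 0.000237). *pre-mod(mdg4)-C* received 3.4 counts in wild type and 101 in Upf1-NosL7 (ratio 32.0, counting interval 12.3 to 182), and its adjusted p of 0.0195 rose to 0.0614 without wild-type replicate 3. These genes share sequence with *mod(mdg4)* and with each other, so that the division of reads among them is uncertain. The same holds for *GatC* and *PolG2*, which share a locus and were given identical counts (log2 fold change 1.07 for both, and 0.96 without wild-type replicate 3).

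By chromosome, the enriched genes were unevenly placed. Arm 3L held 1 of 1283 tested genes (0.0779%), compared with 13 of 1159 (1.12%) on 2L, 18 of 1327 (1.36%) on 2R, 20 of 1602 (1.25%) on 3R and 10 of 1150 (0.87%) on X. Chromosome 4 held 3 enriched and 3 depleted genes of 55. The X chromosome held 32 depleted genes of 1150 (2.78%), and the proportions on 2L, 2R, 3L and 3R were between 0.863% and 1.87%. These counts are a description, without a test.

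The depleted genes were long. Their median annotated transcript length was 6323 nt (quartiles 3722 and 7842 nt), compared with 1873 nt for all genes tested and 1372 nt for the enriched genes. Of the 115, 89 fell in the longest of the 5 length bins and 1 in the shortest. The change in abundance of all genes ran along length as well. The median log2 fold change was 0.17 in the shortest bin, 0.05, −0.04 and −0.15 in the following ones and −0.51 in the longest. Without wild-type replicate 3 the same medians ran from 0.09 to −0.22, and with length offsets they were between −0.05 and −0.03. The part of wild-type replicate 3 and of library quality in the depletion of long mRNAs was not tested.

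**Figure D4:**
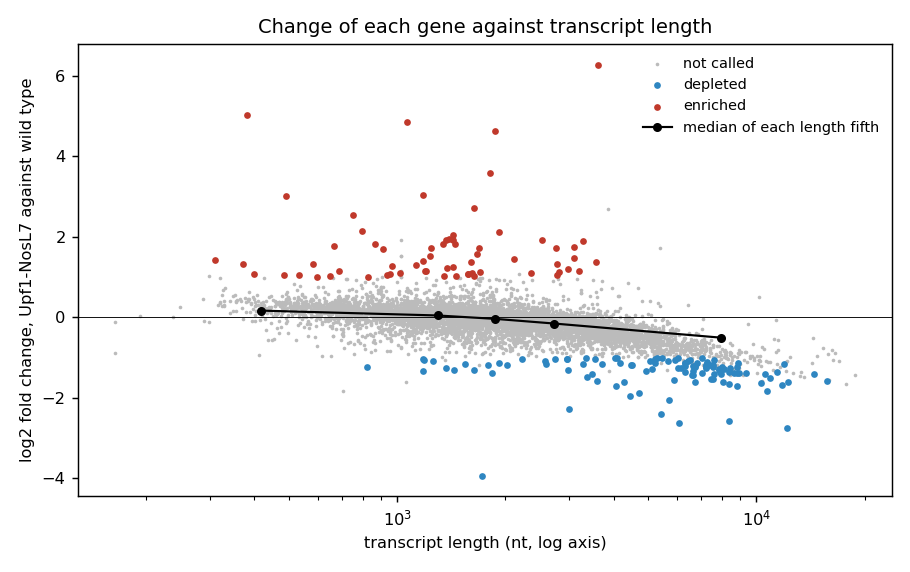
Log2 fold change of each gene in Upf1-NosL7 against wild type as a function of annotated transcript length (log axis). Depleted genes (blue) lie mostly among the longest transcripts, enriched genes (red) mostly among short ones, and the medians of the 5 length bins (black) run from 0.17 to −0.51. Genes called in Upf1 embryos are not shown.

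The 13 depleted genes that passed the thresholds under all 16 alternatives had a median length of 3005 nt, whereas the other 102 had 6663 nt. *CG13982*, whose gene overlaps *Tig* on the other strand, had the largest change. It stood at 3.44, 2.19 and 3.95 CPM in wild type and at 0.12, 0.20 and 0.30 CPM in Upf1-NosL7 (log2 fold change −3.94, SE 0.49, adjusted p = 6.86e-05), and was lower than in Upf1 (difference −3.14, adjusted p = 0.00361) and in Nos embryos (difference −3.54, adjusted p = 0.000341). *Eip75B*, an ecdysone-induced nuclear receptor gene, was at 5.63, 9.91 and 12.8 CPM against 1.24, 1.63 and 1.78 CPM (log2 fold change −2.63, adjusted p = 0.000161). *Cadps*, whose product primes dense-core vesicles for release, was at 26.7, 24.4 and 37.4 CPM in wild type and 4.90, 5.88 and 6.30 CPM in Upf1-NosL7 (log2 fold change −2.40, adjusted p = 6.58e-07). *Cadps* was also depleted by Nos, at 8.92 ± 0.91 CPM, whereas Upf1-Nos embryos had 41.5 ± 2.00 CPM (difference of Upf1-NosL7 from Upf1-Nos −2.52, adjusted p = 9.17e-09).

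Among abundant depleted mRNAs, *GstD1* had the highest level in wild type, with a mean of 959 TPM. This glutathione S-transferase gene stood at 548, 755 and 473 CPM in wild type and at 251, 273 and 239 CPM in Upf1-NosL7 (log2 fold change −1.23, SE 0.15, adjusted p = 6.48e-05). The wild-type libraries were all above the highest Upf1-NosL7 library. *CG4570* had 436, 404 and 332 CPM against 204, 214 and 136 CPM (log2 fold change −1.09, adjusted p = 0.000287). *CG9609*, on the X chromosome, fell from 110, 144 and 110 CPM to 47.3, 46.7 and 47.5 CPM (log2 fold change −1.38, adjusted p = 3.87e-05). *Tis11*, which encodes an AU-rich element binding protein of mRNA decay, was at 159, 130 and 220 CPM against 86.7, 68.2 and 71.7 CPM (log2 fold change −1.19, adjusted p = 0.000768). The change of *Tis11* fell short of the 2-fold threshold without wild-type replicate 3 (−0.90, adjusted p = 0.00236). *Phf7*, a chromatin reader gene of the male germ line, had a log2 fold change of −1.04 (adjusted p = 0.000518).

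Other members of the 13 were the Polycomb group gene *ph-p* (log2 fold change −2.05), *Liprin-gamma* (−1.89), the ETS factor gene *pnt* (−1.72), *Exn* (−1.41), *CG5114* (−1.32), the pseudogene *CR43361* (−1.27) and *Adgf-A*, encoding an adenosine deaminase (−1.16). *Ten-a*, *Hr4* and *lov* had larger changes than most of these, at −2.75, −2.58 and −1.95, but did not pass the thresholds under all alternatives. *lov* stood at 0.25, 0.27 and 0.45 CPM in wild type, and its adjusted p rose from 0.0441 to 0.214 without wild-type replicate 3.

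Genes of the cytoskeleton, of cell polarity and of chromatin, lists that were chosen with earlier results of these data known, had lower medians than all genes when all libraries were used without length offsets. Of 34 chromatin regulators tested, 8 were depleted against 1.75% of all genes, none was enriched, and their median log2 fold change was −0.92 with a median length of 6473 nt. The depleted members were *ph-p*, *tou*, *nej*, *ash1*, *skd*, *gpp*, *Set2* and *G9a*. The acetyltransferase gene *nej* was at 29.4, 71.7 and 87.0 CPM in wild type and at 21.2 ± 1.52 CPM in Upf1-NosL7 (log2 fold change −1.59, adjusted p = 0.0492), and the H3K9 methyltransferase gene *G9a* had a log2 fold change of −1.05 (adjusted p = 0.0311). With length offsets the median of the list was −0.15 and none of 33 members was called by edgeR, with 9 lower and 1 higher at an unadjusted p below 0.05. *ph-p* passed the thresholds there (−1.42, adjusted p = 0.00375) but was left out, since Upf1 called it under that setting. DESeq2 without the offsets called 12 of the 34, where it called 169 of 6564 genes depleted. Leaving out 1 library moved the count in both directions. Without wild-type replicate 1, 20 of 34 members were depleted, without wild-type replicate 2 there were 2, and without any one of the Upf1-NosL7 libraries 1. Over all genes, 323 of 6650 were depleted without wild-type replicate 1 and 56 of 6631 without wild-type replicate 2. Without Upf1-NosL7 replicates 1, 2 and 3 there were 57 of 6617, 34 of 6620 and 40 of 6617, so that the count of all genes moved as well. Without wild-type replicate 3, 1 of 19 members tested was depleted and the median was −0.30, where 29 of 6393 genes were depleted. Here and in the lists below, genes called in Upf1 under a setting were left out of it. The 19 members had a median length of 5279 nt, so that this median and the −0.92 above cover different genes.

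Of 21 genes of the membrane cytoskeleton, 2 were depleted against 1.75% of all genes, *Dys* (dystrophin, −1.42) and *cora* (Coracle, a component of septate junctions, −1.55). The median was −0.62, or −0.11 with length offsets and −0.21 without wild-type replicate 3. DESeq2 and the likelihood ratio test of edgeR each called 6 of 20, where 169 of 6564 and 166 of 6562 genes were depleted. Without wild-type replicate 1 the count was 7 of 21, where 323 of 6650 genes were depleted. Without any other single library it was 1, of 13 members tested without wild-type replicate 3 and of 21 in the other cases. The 13 members had a median length of 3511 nt, against 5101 nt for the 21, so that the medians −0.21 and −0.62 cover different genes. *shot*, which encodes a spectraplakin, was at 6.20, 13.0 and 23.6 CPM in wild type and 6.21, 3.59 and 3.98 CPM in Upf1-NosL7, so that the groups overlapped (log2 fold change −1.67, adjusted p = 0.0639). The spectrin genes *alpha-Spec* and *beta-Spec* had log2 fold changes of −0.87 (adjusted p = 0.0996) and −1.07 (adjusted p = 0.0756), and with length offsets *beta-Spec* had −0.22 (adjusted p = 0.239) and *alpha-Spec* was no longer below 0. *hts*, an adducin gene, had −0.72 (adjusted p = 0.0112). Of 17 genes for PDZ and polarity proteins, 1 was depleted against 1.75% of all genes, the tight junction scaffold gene *pyd* (−1.34). The median was −0.55. With length offsets the median of this list was −0.02, where that of all genes was −0.039, with none called by edgeR, 3 members lower and 3 higher at an adjusted p below 0.05, and 4 lower and 3 higher at an unadjusted p below 0.05. Without wild-type replicate 3 the median was −0.25, over 15 members. DESeq2 called 2 of the 17, and edgeR 4 without wild-type replicate 1, where 169 of 6564 and 323 of 6650 genes were depleted. None of the called members *Dys*, *cora* and *pyd* kept its call both with length offsets and without wild-type replicate 3.

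Of 8 mRNAs known to be regulated by Nos and Pum, none was called by edgeR or DESeq2, and 4 were lower at an unadjusted p below 0.05, where 1391 of 6581 genes were. The median log2 fold change was −0.47, or −0.16 with length offsets and −0.22 without wild-type replicate 3. Without wild-type replicate 1, edgeR called 1 of them depleted, where 323 of 6650 genes were. *hb*, the segmentation target of Nos, stood at 106, 120 and 159 CPM in wild type and at 90.3, 76.1 and 95.8 CPM in Upf1-NosL7, with no overlap of the groups. Its log2 fold change of −0.58 (SE 0.16, adjusted p = 0.0259) was −0.37 (adjusted p = 0.00368) with length offsets and −0.33 (adjusted p = 0.126) without wild-type replicate 3. It differed from the effect of Upf1-Nos by 6.46 (log2, adjusted p = 1.06e-11). *mei-P26*, which encodes a TRIM-NHL protein, was lower by less than the threshold (log2 fold change −0.93, adjusted p = 0.0419), and *brat*, whose product acts with Nos and Pum, had −0.53 (adjusted p = 0.165). *bcd*, the anterior determinant, had 0.11 (adjusted p = 0.704). The importin gene *Pen* had −0.11 (adjusted p = 0.575) and *CycB* 0.08 (adjusted p = 0.775). Both *bcd* and *CycB* were below 0 without wild-type replicate 2.

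Of the mRNAs for Nos partners, *pum* was depleted. Its level was 82.6, 139 and 217 CPM in wild type and 59.0, 51.4 and 56.2 CPM in Upf1-NosL7 (log2 fold change −1.42, adjusted p = 0.0232), and the mean in Nos embryos was 57.3 ± 19.8 CPM. It fell short of the 2-fold threshold with length offsets (−0.68, adjusted p = 0.0011) and did not pass the test without wild-type replicate 3 (−0.96, adjusted p = 0.104). Among 26 translational repressors and decay factors, *pum* and the RNA-binding protein gene *larp* (−1.23, adjusted p = 0.031) were depleted, against 1.75% of all genes. The median of the list was −0.44. With length offsets and without wild-type replicate 3 none was called by edgeR, with 6 and 5 lower at an unadjusted p below 0.05 and medians of −0.11 and −0.17. DESeq2 with all libraries called 2, where 169 of 6564 genes were depleted. *bru1*, which encodes the translational repressor Bruno, was at 854, 978 and 916 CPM against 800, 773 and 806 CPM (log2 fold change −0.22, adjusted p = 0.372). Of 5 mRNAs known to be regulated by Bruno, none was called by edgeR or DESeq2, and 2 were lower at an unadjusted p below 0.05, *Sxl* (−0.74, adjusted p = 0.00108) and *grk* (−0.27, adjusted p = 0.0443).

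Other groups held few or no calls. For their counts at an unadjusted p below 0.05, the baseline is 1391 lower and 701 higher of all 6581 genes. Of 16 germ plasm mRNAs none was called by edgeR or DESeq2, with 6 lower and 1 higher at an unadjusted p below 0.05 and a median of −0.30, or −0.18 with length offsets and −0.14 without wild-type replicate 3. Without wild-type replicate 1, edgeR called 3 of them depleted, where 323 of 6650 genes were. The posterior determinant *osk* did not pass the test (log2 fold change 0.08, adjusted p = 0.769). *exu* and *vas* had −0.63 (adjusted p = 0.00915) and −0.56 (adjusted p = 0.0208). Of 11 NMD and exon junction factors none was called by either tool, with 2 lower and 2 higher at an unadjusted p below 0.05, and of 20 DNA replication genes none, with 7 lower. Of 87 ribosomal protein genes 1 was enriched, against 0.988% of all genes. It was the germline paralog *RpS19b* (0.75, 0.53 and 0.45 CPM in wild type and 1.55, 1.83 and 2.61 CPM in Upf1-NosL7, log2 fold change 1.78, adjusted p = 0.00569). The median of the ribosomal proteins, short mRNAs of 646 nt at the median, was 0.24, or 0.01 with length offsets and 0.12 without wild-type replicate 3. Of 6 replication-dependent histone genes, none met both thresholds in edgeR and 4 were higher at an unadjusted p below 0.05. Their median log2 fold change was 1.07, or 0.86 with length offsets and 0.92 without wild-type replicate 3. DESeq2 called 2, as did edgeR with the size factors of DESeq2 or with library totals only. Under these settings 67 of 6564, 76 of 6580 and 73 of 6563 genes were enriched. The histone H1 copies *His1:CG31617* and *His1:CG33813* had identical counts (log2 fold change 1.00, adjusted p = 0.000363 in edgeR), and near-identical copies share reads. Of 9 early zygotic genes tested, none was called by either tool and 1 was lower at an unadjusted p below 0.05.

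The effects of Upf1-NosL7 were compared with those of the other chimera and its parts within the same model, in which the difference of 2 effects does not involve wild type. Because the genes were picked for their change in Upf1-NosL7 and genes called in Upf1 were left out, larger effects in Upf1-NosL7 are favored. Of the 115 depleted genes, 105 were lower in Upf1-NosL7 than in Upf1 embryos, where 28.1% of all genes were. With length offsets, 57 of the 115 were lower than in Upf1, but the share of all genes under that setting is not given for comparison. Upf1 embryos ran the opposite way along length, with a median log2 change from wild type of −0.18 in the shortest bin and 0.42 in the longest, which held 89 of the 115 genes. Relative to Nos, 26 were lower and 3 higher, where 20.9% of all genes were lower and 8.59% higher, so that the share lower is near that of all genes. For 86 of the 115 the difference from Nos did not pass the test. Their 115 genes had a median log2 change from wild type of −0.89 in Nos embryos, where that of all genes was 0.07. In Upf1-Nos embryos these medians were −1.11 and −0.51. Relative to Upf1-Nos, 42 were lower and 30 higher, where 13.2% of all genes were lower and 57.7% higher. Of the 65 enriched genes, 51 were higher than in Upf1 (13.1% of all genes), 38 higher than in Nos (8.59%) and 37 higher than in Upf1-Nos (57.7%), so that the last share is near that of all genes.

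Of the 13 depleted genes that passed the thresholds under all alternatives, 9 were higher in Upf1-NosL7 than in Upf1-Nos embryos and 2 lower, where 57.7% of all genes were higher and 13.2% lower, so that both shares are near those of all genes. *CG9609* stood at 122 ± 19.4 CPM in wild type, 80.9 ± 4.98 CPM in Upf1, 74.5 ± 4.77 CPM in Nos, 47.1 ± 0.43 CPM in Upf1-NosL7 and 1.13 ± 0.51 CPM in Upf1-Nos. *GstD1* stood at 592 ± 146 CPM in wild type, 385 ± 68.6 CPM in Upf1, 647 ± 57.9 CPM in Nos, 254 ± 17.3 CPM in Upf1-NosL7 and 23.9 ± 2.42 CPM in Upf1-Nos. *CG5114* ran in a similar order, from 54.5 ± 5.11 CPM in wild type over 44.9 ± 2.23 CPM in Nos and 32.0 ± 0.87 CPM in Upf1 to 22.1 ± 2.30 CPM in Upf1-NosL7 and 9.50 ± 0.36 CPM in Upf1-Nos. In these 3 genes the level in Upf1-NosL7 was lower than both Upf1 and Nos and higher than Upf1-Nos, each at an adjusted p below 0.05 (for *CG9609* 0.0048 against Upf1, 0.00543 against Nos and 1.93e-11 against Upf1-Nos). *Cadps* and *ph-p* were the 2 that were lower in Upf1-NosL7 than in Upf1-Nos.

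At the level of mRNA isoforms, 79 of 12492 isoforms tested (0.632%) were depleted and 123 (0.985%) enriched, and they came from 188 genes. At any size of change, 151 (1.21%) were lower and 320 (2.56%) higher, and with isoforms called in Upf1 kept in, 143 (1.11%) were depleted and 264 (2.06%) enriched. The libraries of the groups did not overlap for 78 of the 79 depleted and for all 123 enriched isoforms, where 17.8% of all isoforms were lower and 12.2% higher without overlap. Isoforms in which translation ends far upstream of the last exon junction, a feature that marks mRNAs for NMD in many animals, were more frequent among the enriched ones. Among the coding isoforms with introns, 18 of 95 enriched isoforms (18.9%) had their annotated stop codon more than 50 nt upstream of the last junction, compared with 3.9% of all such isoforms tested and 2.63% of the depleted. The annotated 3′ UTR was longer than the coding sequence in 22 of 107 enriched isoforms (20.6%), 9.6% of all and 3.8% of the depleted. Of the 44 enriched isoforms that passed the thresholds under all 16 alternatives, 7 of 31 (22.6%) had such a stop codon. These shares are a description, and no test was made on them.

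For 65 of the 123 enriched isoforms the gene as a whole was tested and not called, and in this group 14 of 60 (23.3%) had the distant stop codon. An isoform of *tra* that ends translation early (FBtr0100244, coding sequence of 108 nt and 3′ UTR of 744 nt) stood at 1.05, 1.06 and 1.02 CPM in wild type and at 3.83, 7.11 and 4.87 CPM in Upf1-NosL7 (log2 fold change 2.37, adjusted p = 0.0157). Its share of the TPM of *tra* was 5.18 ± 0.75% in wild type and 18.1 ± 3.85% in Upf1-NosL7 (SD, n = 3), while the main isoform did not pass the test (log2 fold change 0.32, adjusted p = 0.298). *RpL10Ab* had a minor isoform with a distant stop codon (FBtr0345073) that rose from 2.75, 2.18 and 2.23 CPM to 7.48, 9.34 and 10.7 CPM (log2 fold change 1.99, adjusted p = 0.000682), at 0.09% of the gene's TPM in wild type and 0.30% in Upf1-NosL7.

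Isoforms of this kind were also enriched for other genes of translation and RNA processing. In *RpS9* (FBtr0076424, stop codon 182 nt upstream of the last junction) the level was 6.43, 6.91 and 5.99 CPM in wild type and 13.2, 16.8 and 16.4 CPM in Upf1-NosL7, a log2 fold change of 1.31. For *Rack1* (FBtr0331237, 230 nt), which encodes a ribosome-bound scaffold, it was 1.47, for *RpS3A* (FBtr0308296, 221 nt) 1.15 and for *Hel25E* (FBtr0331676, 1017 nt), which encodes an RNA helicase of splicing and export, 1.60. At the level of the gene these had log2 fold changes of 0.24, 0.32, 0.20 and −0.05, and none was called. Of 200 isoforms of ribosomal protein genes tested, 8 were enriched, against 0.985% of all isoforms, and none was depleted. One of the 8 belongs to *RpL7-like* and had the same counts as an isoform of *CG34164*, so that its source is uncertain.

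**Figure D5:**
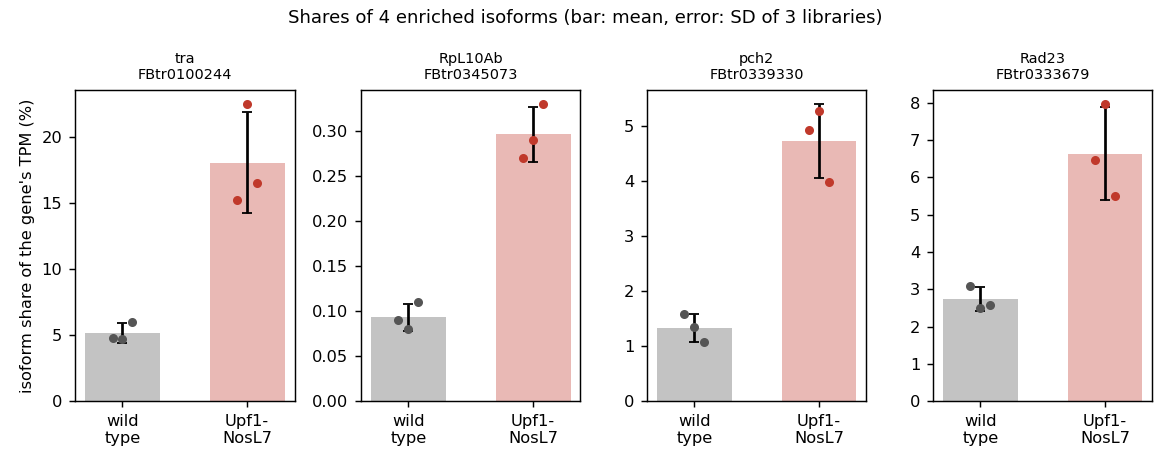
Share of 4 enriched isoforms in the TPM of their gene in wild-type and Upf1-NosL7 libraries (points, with bars for the mean and error bars for the SD of 3 libraries; each panel has its own axis). The isoform of *tra* with an early stop codon rises from 5.18% to 18.1%, and the isoform of *Rad23* from 2.73% to 6.63%.

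In *Rad23*, a gene on chromosome 4 that encodes a shuttle factor of the proteasome, isoforms changed in opposite directions. The isoform with the longer 3′ UTR (FBtr0333679, 633 nt) rose from 2.73 ± 0.32% to 6.63 ± 1.24% of the gene's TPM and the isoform FBtr0089121, with 113 nt, fell from 8.96 ± 0.93% to 2.02 ± 1.04%. *Rad23* as a whole had a log2 fold change of 0.03. *pch2*, which encodes an ATPase of the meiotic checkpoint, had an isoform with a 3′ UTR of 750 nt (FBtr0339330) whose share was 1.34 ± 0.25% in wild type and 4.73 ± 0.66% in Upf1-NosL7.

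Among isoforms whose libraries did not overlap between the groups, the depleted ones with the largest changes were at or near 0 in Upf1-NosL7, although most of their genes were not called. The isoform FBtr0303272 of *CG42748* made up 29.1%, 29.9% and 38.3% of the gene's TPM in wild type, at up to 46.3 CPM, and had no count in any Upf1-NosL7 library, at least 542-fold lower with a floor of 3 counts over the group. The log2 fold change of the whole gene was 0.09. The isoform FBtr0072067 of *apt* was at 4.48, 2.39 and 2.06 CPM and also without a count in Upf1-NosL7 (at least 47.9-fold lower), and both passed the thresholds under all 16 alternatives. Isoforms of *dia* (FBtr0081410) and *lilli* (FBtr0290038) had no count in Upf1-NosL7, and an isoform of *Dyro* (FBtr0333388) was at 0, 0.01 and 0.01 CPM. Their levels varied widely between the wild-type libraries, from 2.86 to 28.0 CPM for *Dyro*, and these calls were lost under some alternatives. *lilli* was also depleted as a whole gene (log2 fold change −1.27, adjusted p = 0.0456), but not without wild-type replicate 3 (−0.83, adjusted p = 0.198). Among the enriched, an isoform of *ppk29* (FBtr0289970) had no count in wild type and 2.82, 2.13 and 4.23 CPM in Upf1-NosL7 (at least 54.1-fold higher). It was higher than in Upf1 embryos (adjusted p = 0.0177), and its difference from Upf1-Nos did not pass the test (adjusted p = 0.767). Isoforms of *Hydr1* (FBtr0339361) and *Nt5c* (FBtr0088523) had no count in wild type either, but neither differed from Upf1 at an adjusted p below 0.05 (0.168 and 0.144). RSEM divides reads among overlapping isoforms, so that the levels of single isoforms are estimates.

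Among whole genes, *sordd2* and *CG30059* had no count in the 3 wild-type libraries. Both were called in Upf1 embryos and were left out of the counts above. *CG30059* was at 32.5, 34.9 and 42.1 CPM in Upf1-NosL7, at least 645-fold above wild type, and at means of 30.2 CPM in Upf1, 74.9 CPM in Nos and 18.4 CPM in Upf1-Nos. In unsorted embryos of 0 to 1 hours it was at 0 in 2 of the 3 wild-type libraries and at 0.17 CPM in the third, and at 44.0 to 47.5 CPM in those labelled with the genotype nos. *sordd2* differed in that respect, with 37.9 to 48.8 CPM in the unsorted wild-type embryos. Both genes had counts in all 4 transgenic genotypes, in which the transgenes and the stocks cannot be told apart. No gene above 10 CPM in wild type was without counts in Upf1-NosL7.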

How the data were processed

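The authors trimmed the reads, removed short reads and reads of rRNA, tRNA and mitochondrial transcripts, ran STAR 2.5.3a and quantified genes and isoforms with RSEM 1.3.0. The deposited expected counts (estimated counts without normalization) and the deposited TPM are the values that the authors obtained from RSEM. Counts of 17714 genes and 34753 isoforms were used, of which 17654 and 34477 were matched to the annotation of BDGP6.54 by identifier. The submitters' notes name the build BDGP 6 and the later analysis tools R 4.2.1 and edgeR 3.40.2. Whether reads were counted by strand is not given in the sources used here.

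Expected counts were rounded, filtered with filterByExpr (count minimum and total count minimum of 30), scaled by TMM and fitted with edgeR 4.0.16 (limma 3.58.1, R 4.3.3) in its earlier quasi-likelihood form, with genotype as the only term over 15 libraries. The study names edgeR but not the test. The 3 Upf1-Nos libraries took scaling factors from 20 genes (21 isoforms) listed by the study. P-values were adjusted by Benjamini-Hochberg across the 6857 genes or 12840 isoforms that passed the filter, from which 276 genes and 348 isoforms called in Upf1 were then left out. Each standard error was derived from the log2 change and the F value of its test. CPM are on library totals. Length offsets came from a loess of each library on log2 length (span 0.5). DESeq2 1.42.0 was an alternative. Python 3.11.15 with pandas 2.3.3 made the tables, and matplotlib 3.10.9 the plots. Ratios and floors based on counts cover counting error only.

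The members and the gene lists were chosen with earlier results of these data known. Genes named are the 8 called genes with the largest change in each direction among those without overlap of the groups, a list of genes tied to Nos, the called and the 3 most abundant members of each gene list (not all of the latter are printed), the 5 called isoforms with the largest change in each direction by the same rule on overlap, the 5 most abundant called genes in each direction, and genes without a count in 1 group and above 10 CPM in the other. Other genes, among them those that passed under all alternatives and the isoforms with early stop codons, were chosen after their values were seen. Same-numbered libraries had correlations of −0.035, 0.229 and 0.305 in their deviations from the group means, not all above 0.1, and were not treated as pairs. On data simulated for Upf1-NosL7 against wild type over 6751 genes, 69 of 70 changes of 3-fold, 69 of 70 of 6-fold and 2 of 60 of 1.5-fold, which lies under the threshold, were called, with 0 other genes, and 0 genes where none was changed. The simulated counts had no trend along transcript length and no library that stood apart, so that these features of the data were not covered. Sequence motifs of 3′ UTRs were not analysed here.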

Additional observations from a re-analysis of the deposited data

How the results depend on the processing

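Depleted genes numbered 58 with the stricter filter (minimum count 100), 40 with length offsets, 33 at an adjusted p below 0.01, 7 at a fold above 4, 516 at any size and 201 with genes called in Upf1 kept in, and from 29 (without wild-type replicate 3) to 323 (without wild-type replicate 1) when 1 library was left out, against 115. Enriched genes numbered 107 with the default filter, 167 without a filter, 12 at a fold above 4, 332 at any size and 155 with genes called in Upf1 kept in, against 65, and from 62 to 85 when 1 library was left out. With length offsets, depleted genes numbered from 23 (without wild-type replicate 3) to 65 (without wild-type replicate 1) against 40, and enriched genes from 66 to 75 against 63. The cause of these changes was not tested.

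Depleted isoforms numbered 331 by the DESeq2 Wald test, 211 by the likelihood ratio test, 48 with 6 libraries, 18 at an adjusted p below 0.01, 26 at a fold above 4, 151 at any size, 143 with isoforms called in Upf1 kept in, and from 29 to 151 when 1 library was left out, against 79. Enriched isoforms numbered 66 with 6 libraries, 74 at an adjusted p below 0.01, 35 at a fold above 4, 320 at any size, 264 with isoforms called in Upf1 kept in, and from 76 to 132 when 1 library was left out, against 123. With length offsets the ranges were 41 to 81 for depleted isoforms (71 with all libraries) and 67 to 105 for enriched isoforms (104 with all libraries). Of the depleted genes, 57 were lower than in Upf1 and 19 lower than in Upf1-Nos with length offsets (105 and 42 without), and 16 lower than in Nos with the stricter filter (26 without). The shares of all genes under these settings are not given, so that these counts have no baseline. The length offsets with a library left out, and the comparisons with the other genotypes under each setting, were chosen after seeing the data.

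With the replicate number as a block, 71 genes were depleted and 66 enriched, and 38 and 62 with block and length offsets. The samples share only a number, since not every pair of same-numbered libraries deviated together. No named gene that was called changed direction under any setting. Of the other named genes, 17 (log2 fold changes between −0.87 and 0.28) changed sign under 1 or more settings. The filter on low counts limited the test to 6857 of 17714 genes, of which 11614 had any count over the 15 libraries. Genes with fewer reads were not tested.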
